A study of Rattus norvegicus with 18 samples.

Results

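Cytochromes P450 of families 1, 2 and 3 are the heme enzymes of the smooth endoplasmic reticulum with which hepatocytes oxidize drugs, plant compounds and steroids. They draw electrons from NADPH through cytochrome P450 oxidoreductase (Por) and, for some reactions, through cytochrome b5. Much of their transcription is set by 3 receptors that sense foreign compounds: the aryl hydrocarbon receptor (Ahr) acts on Cyp1 genes, the constitutive androstane receptor CAR (Nr1i3) on Cyp2b genes, and the pregnane X receptor PXR (Nr1i2) on Cyp3a genes. In the rat, several of them also differ between the sexes through the pattern of growth hormone secretion.

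The members were the probe sets of the GeneChip Rat Gene 2.0 ST array whose annotation gave a single symbol of family 1, 2 or 3, which came to 40 genes of the 18166 genes with a single symbol. Each of the 40 had 1 probe set, and another 2 probe sets that carried several symbols, with 1 of these families among them, were left out. Total liver RNA of 18 adult male Sprague-Dawley rats was hybridized, 1 array per rat, in 6 groups of 3 separate rats. The naive rats had neither resection nor transfusion. The PHx rats had 50% of the liver mass removed (partial hepatectomy), and their livers were taken on day 1. The bleeding rats had the same resection after 3 ml of blood had been drawn through a cannula in the femoral artery. The F-RBC, S-RBC and HAES rats were resected and bled in the same way and were then given fresh red blood cells, red blood cells stored for 7 days, or HAES 10%. According to the methods, operations were done under ketamine and xylazine, and whether naive rats were anaesthetized is not given in the sources used here, so resection, anaesthesia and surgery as such cannot be told apart in comparisons with naive rats. The study's question for the F-RBC and S-RBC groups was how storage of transfused cells affects the resected liver.

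Values are given as log2(intensity + 16), called the log2 level here, where intensity is the deposited linear value of a probe set. A log2 level compares rats for 1 gene and does not rank genes by transcript number, since probes differ in brightness. Statements that rats of different groups did not overlap describe these few rats and are no test. The share of all probe sets without such overlap was not counted. Median intensity per array ranged from 16.1 to 23.0, and the F-RBC arrays, at 20.9 to 22.7, did not overlap with the naive arrays, at 16.1 to 18.6. S-RBC replicate 1 stood apart, with correlations of 0.911 to 0.938 with the other arrays over all probe sets. The 6 measured markers of hepatocytes, among them Alb (albumin), gave a mean log2 level between 11.31 and 11.67 on every array. In whole liver, fewer cells of a type and less RNA per cell cannot be told apart.

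Some genes of these families have closely similar upstream sequences. The sequences upstream of Cyp2b1 and Cyp2b2 are shown because both genes were higher than naive in all 4 groups that were bled. Promoter sequences from RefSeq (build GRCr8) were matched for 36 of the 40 genes. The stretches of 233 bases that could be aligned, at chr1:90645886-90646118 and chr1:90722031-90722263, both on the plus strand, were identical at 225 bases (96.57%), and the 8 bases that differ are in capitals.
Cyp2b1: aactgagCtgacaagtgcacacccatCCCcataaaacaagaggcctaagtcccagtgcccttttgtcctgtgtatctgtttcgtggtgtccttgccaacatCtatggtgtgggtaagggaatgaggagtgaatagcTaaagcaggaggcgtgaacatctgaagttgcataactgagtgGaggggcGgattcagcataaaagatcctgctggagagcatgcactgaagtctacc
Cyp2b2: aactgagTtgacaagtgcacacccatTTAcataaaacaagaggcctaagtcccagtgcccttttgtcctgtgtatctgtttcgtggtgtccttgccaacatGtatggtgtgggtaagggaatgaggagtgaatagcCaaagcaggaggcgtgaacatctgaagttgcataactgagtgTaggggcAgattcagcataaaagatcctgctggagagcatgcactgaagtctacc
Whether the probe sets of so similar a pair share signal was not tested. Upstream stretches of Cyp2d3 and Cyp2d5 were 97.16% identical, and those of Cyp3a2 and Cyp3a23-3a1 87.34%. The other aligned pairs within a subfamily ran from 52.09% (Cyp2a1 and Cyp2a3) to 84.79% (Cyp2b12 and Cyp2b15).

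Upstream sequences of the Cyp3a subfamily are shown because PXR is known to act on these genes. A direct repeat of TGAACT separated by 3 bases, the kind of element PXR binds with its partner RXR, was searched on both strands. It occurred in 2 of 27457 promoters (0.007284%), and both were members. Only this exact spelling was searched, without variants, and the upstream stretches of these 2 genes were 87.34% identical. The count is therefore no test of whether such elements are particular to the members. Stretches of 65 bases around the repeat are printed for Cyp3a23-3a1 (chr12:14398908-14398972, minus strand) and Cyp3a2 (chr12:14343949-14344013, minus strand), with the repeated 6 bases in capitals.
Cyp3a23-3a1: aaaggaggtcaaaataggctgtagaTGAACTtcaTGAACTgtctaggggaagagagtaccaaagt
Cyp3a2: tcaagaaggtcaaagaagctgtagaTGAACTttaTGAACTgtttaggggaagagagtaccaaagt
The 250 bases before the start of Cyp3a9 (chr12:21960161-21960410, minus strand) held no such repeat and 1 copy of the 6 bases on the other strand, in capitals.
Cyp3a9: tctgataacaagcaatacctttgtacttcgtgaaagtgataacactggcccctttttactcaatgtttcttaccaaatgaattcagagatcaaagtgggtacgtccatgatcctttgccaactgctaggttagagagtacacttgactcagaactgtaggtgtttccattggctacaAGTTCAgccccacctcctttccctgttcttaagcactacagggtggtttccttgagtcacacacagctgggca
These matches describe the letters within the window and say nothing of whether a factor was bound.

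Of the 40 genes, 31 were brighter than the median probe set. The 10 brightest were Cyp2c6v1, Cyp2c13, Cyp2c22, Cyp2c11, Cyp2e1, Cyp2c23, Cyp2d2, Cyp3a18, Cyp2b2 and Cyp2c12, whose mean log2 levels over 18 arrays ran from 11.98 down to 10.01. The 9 below the median included both measured genes of family 1, Cyp1a1 and Cyp1b1, which Ahr activates, with mean log2 levels of 4.83 and 4.52. The others were Cyp2g1, Cyp2w1, Cyp2a3, Cyp2b12, Cyp2b14l1, Cyp2b21 and Cyp2j16. None of these 9 passed in a comparison. Cyp1a2, also of family 1, had no probe set with a single matching symbol, so its level was not measured here.

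**Figure D1:**
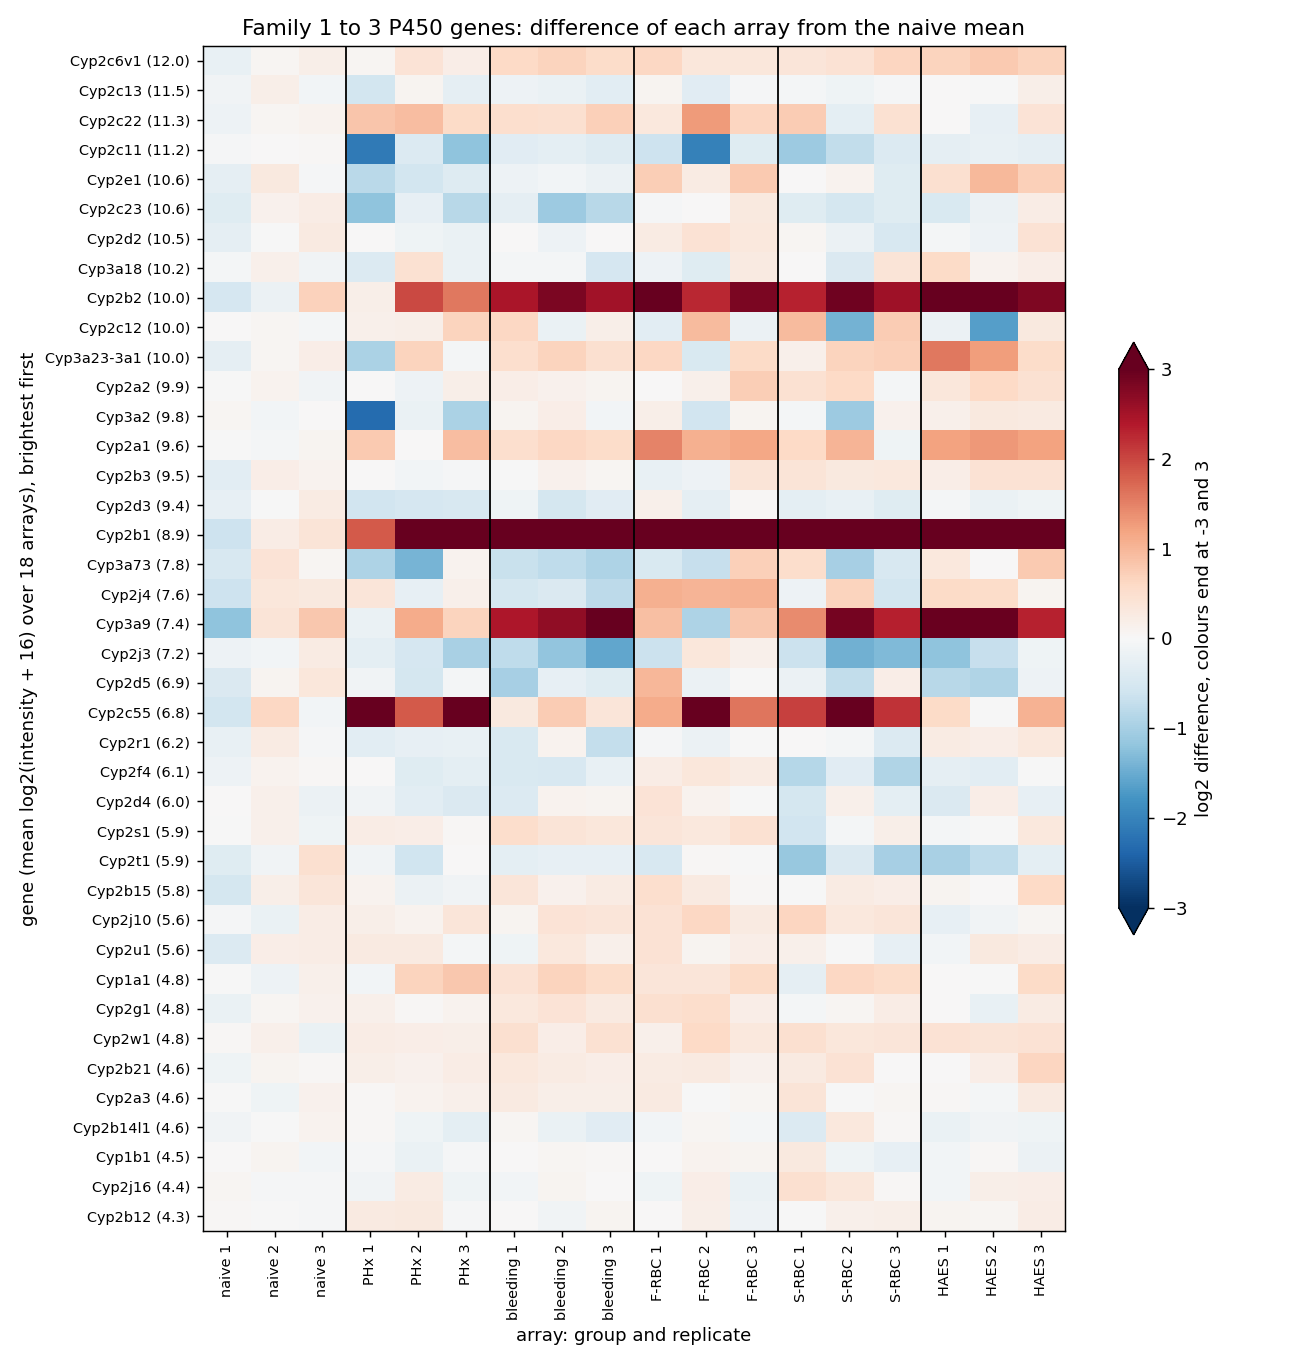
Difference of each array from the mean of the naive arrays on the log2(intensity + 16) scale, for the 40 genes in rows and the 18 arrays in columns, brightest gene at the top. Cyp2b1 and Cyp2b2 were higher than the naive mean on every array of the operated groups, whereas Cyp3a9 and Cyp2c55 were high in some groups only.

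Across the 6 groups, 9 of the 40 genes differed (limma F-test, adjusted p under 0.05), against 6.59% of all probe sets. They were Cyp2a1, Cyp2b1, Cyp2b2, Cyp2c6v1, Cyp2c55, Cyp2e1, Cyp2f4, Cyp2j4 and Cyp3a9. The same 9 genes, and no others, passed in at least 1 of the 10 comparisons between groups, in 27 pairs of gene and comparison. The remaining 31 passed in neither. Of the 27 calls, 11 held whichever single rat of the groups compared was left out, and 16 were lost without at least 1 rat. Such fits also changed how many of all probe sets passed. The number went from 337 to between 64 and 177 for bleeding versus naive. For F-RBC versus bleeding it went from 443 to between 58 and 464. A lost call therefore does not by itself single out the rat left out. In the F-test, Cyp2a1 was lost without naive replicate 1 or 2, and Cyp2j4 without any 1 bleeding or F-RBC rat. The other genes held in the F-test without any single rat. The share of 6.59% covers all probe sets, whereas 31 of the 40 genes were brighter than the median probe set. With probe sets below the median left out, 10 of the genes and 2442 of the fewer probe sets passed the F-test. Among all probe sets the number was 2418, so the share was higher among the brighter ones.

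**Figure D2:**
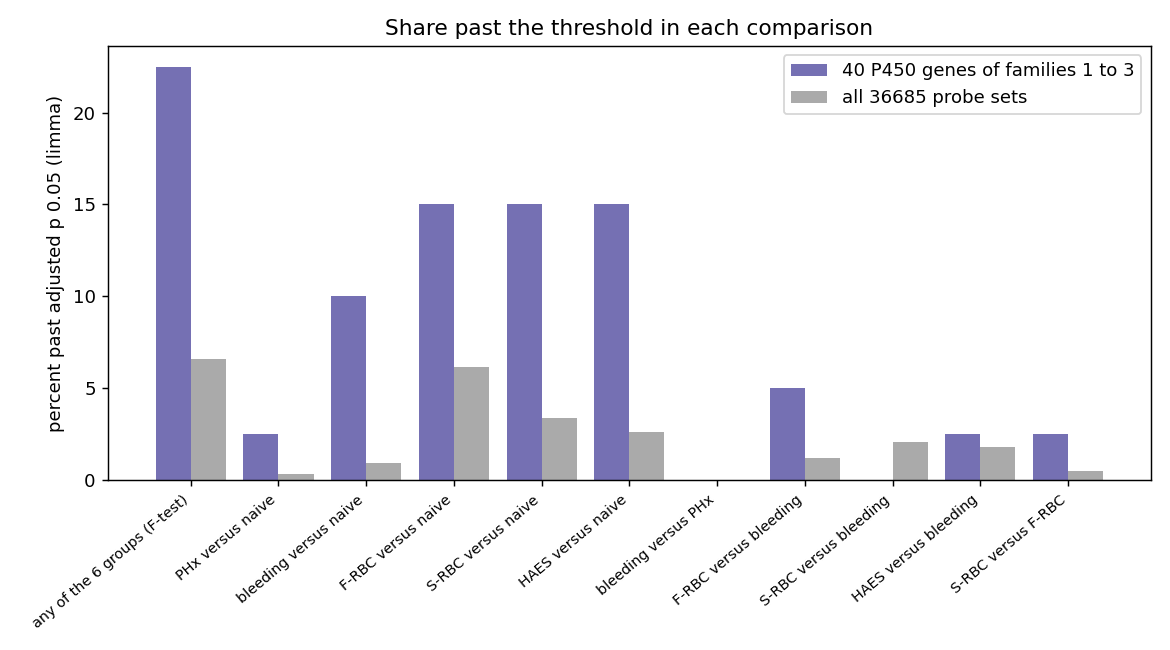
Percentage of the 40 genes and of all 36685 probe sets that passed adjusted p 0.05 in limma, for the F-test and each comparison, in bars that start at 0. The largest share of probe sets passed in the F-test and after F-RBCs versus naive (6.17%), and no probe set passed for bleeding versus PHx.

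Against naive rats, the number of the 40 genes that passed rose from 1 after PHx (0.346% of all probe sets) to 4 after bleeding (0.919%). It was 6 after F-RBCs (6.17%), 6 after S-RBCs (3.37%) and 6 after HAES (2.62%). All of these calls were increases except for Cyp2f4, which fell after S-RBCs. The 5 comparisons share the naive rats. The median log2 fold change of the 40 genes was -0.02, 0.06, 0.24, 0.03 and 0.13 in the same order, beside 0.03, 0.06, 0.14, 0.06 and 0.05 over all probe sets. Of 30 genes in other P450 families, 0, 0, 4, 1 and 1 passed.

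Cyp2b1, the enzyme best known for its induction by phenobarbital, showed the largest difference. Its log2 levels in the 3 rats were 4.0, 4.84 and 5.0 in naive liver, 6.46, 9.03 and 9.01 after PHx and 10.54, 10.86 and 10.37 after bleeding. They were 10.80, 9.58 and 9.28 after F-RBCs, 9.02, 10.40 and 9.49 after S-RBCs and 11.62, 10.71 and 9.56 after HAES. Every operated rat was above every naive rat, and PHx replicate 1 was the lowest of the operated rats. In intensity, the naive arrays read at most 16.0, whereas the bleeding arrays read 1309 to 1838.

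The log2 fold change of Cyp2b1 over naive was 3.55 after PHx (SE 0.62, adjusted p = 0.021 by limma). It was 5.97 after bleeding, 5.27 after F-RBCs, 5.02 after S-RBCs and 6.01 after HAES, with adjusted p from 7.4e-05 to 0.00048. These 4 calls held without any single rat. The call after PHx was lost without naive replicate 1 (adjusted p = 0.107), 2 (0.082) or 3 (0.052) or PHx replicate 3 (0.126). Since the naive arrays lay at or below the median probe set, the size of the change rests on the offset of 16: with an offset of 1 the value after PHx was 5.42 and after bleeding 7.95, and with 64 they were 2.27 and 4.44, the former no longer past the threshold (adjusted p = 0.091).

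Cyp2b2, its near-identical neighbour in the phenobarbital response, began from a higher level. Its log2 levels were 7.51, 7.84 and 8.72 in naive liver, 8.20, 10.00 and 9.60 after PHx and 10.46, 10.84 and 10.54 after bleeding. They were 11.08, 10.28 and 10.84 after F-RBCs, 10.32, 10.95 and 10.57 after S-RBCs, and 11.21, 11.06 and 10.84 after HAES. The naive and PHx rats overlapped, and all 12 rats that were bled lay above both groups. The log2 fold change over naive was 1.25 after PHx (SE 0.37, adjusted p = 0.182), which did not pass. It was 2.59 after bleeding (adjusted p = 0.0033), 2.71 after F-RBCs (0.00078), 2.59 after S-RBCs (0.001) and 3.01 after HAES (0.00037), and these 4 calls held without any single rat.

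**Figure D3:**
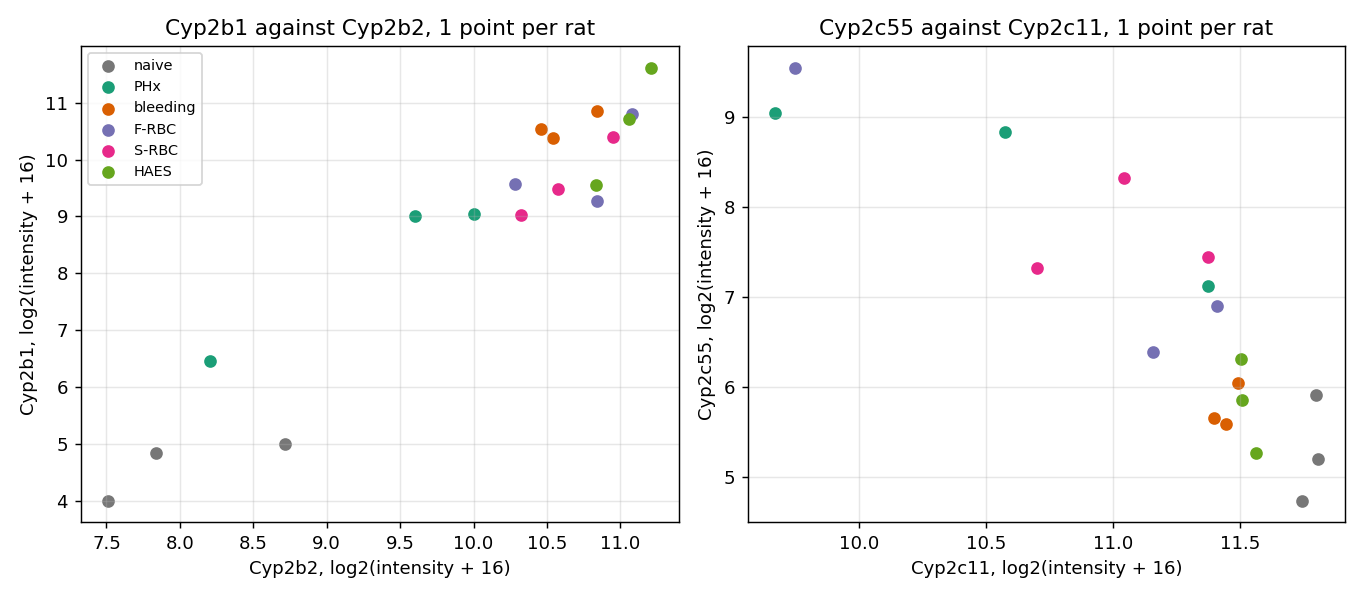
Log2(intensity + 16) of Cyp2b1 against Cyp2b2 (left) and of Cyp2c55 against Cyp2c11 (right), 1 point per rat and 1 colour per group. On the left, the 3 naive rats lie at the bottom left and PHx replicate 1 is nearest to them. On the right, F-RBC replicate 2 and PHx replicate 1 have the lowest Cyp2c11 and the highest Cyp2c55.

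Among the other members of the CAR response, Cyp2c6v1, which metabolizes several drugs and is moderately inducible, was the brightest gene of the set. Over the 3 rats of a group, the log2 level ran from 11.34 to 11.75 in naive, 11.62 to 11.98 in PHx and 12.13 to 12.23 in bleeding livers. It ran from 11.91 to 12.18 after F-RBCs, 11.94 to 12.22 after S-RBCs and 12.23 to 12.36 after HAES. All rats that were bled lay above all naive rats. The increase over naive was 0.60 after bleeding, 0.43 after F-RBCs, 0.49 after S-RBCs and 0.71 after HAES, with adjusted p of 0.034, 0.048, 0.041 and 0.0045. Only the call after HAES held without any single rat. The call after bleeding was lost without naive replicate 1 or 2 or any 1 bleeding rat (adjusted p = 0.094 to 0.112). That after F-RBCs was lost without naive replicate 1 or 2 or any 1 F-RBC rat (0.071 to 0.196), and that after S-RBCs without naive replicate 1 or 2 or any 1 S-RBC rat (0.056 to 0.194). Median centring of the arrays and the replicate block also ended these 3 calls.

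Cyp2a1, a testosterone 7-alpha hydroxylase, was higher than naive after 2 of the fluids. Naive livers had log2 levels of 8.90, 8.84 and 8.99. They were 10.39, 9.97 and 10.06 after F-RBCs and 10.13, 10.21 and 10.12 after HAES. No rat of these groups overlapped with a naive rat. The log2 fold changes were 1.23 (SE 0.24, adjusted p = 0.0092) and 1.24 (adjusted p = 0.01), and both calls held without any single rat. Without fluid, the mean was also above naive, by 0.58 after PHx (adjusted p = 0.395) and 0.55 after bleeding (adjusted p = 0.296). Neither passed. Against bleeding, the differences of 0.68 after F-RBCs (adjusted p = 0.203) and 0.69 after HAES (adjusted p = 0.177) did not pass. After S-RBCs the 3 values were 9.51, 9.93 and 8.79, which enclosed the naive values, with a fold change of 0.50 (adjusted p = 0.295), and the difference between S-RBC and F-RBC did not pass. Of the further Cyp2b genes, Cyp2b3, Cyp2b12, Cyp2b15, Cyp2b21 and Cyp2b14l1 passed in no comparison.

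Within the Cyp3a subfamily, which handles steroids and a wide range of drugs, Cyp3a9 alone passed, and its levels did not follow those of Cyp2b1 in every group. Cyp3a9 is expressed more in female than in male rat liver. Its log2 levels were 4.82, 6.42 and 6.84 in naive liver, 5.83, 7.15 and 6.71 after PHx and 8.45, 8.70 and 9.09 after bleeding. They were 6.92, 5.11 and 6.84 after F-RBCs, 7.45, 8.90 and 8.36 after S-RBCs and 8.98, 9.01 and 8.33 after HAES. The naive, PHx and F-RBC rats covered the same range, and every bleeding, S-RBC and HAES rat was above all of them.

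The log2 fold change of Cyp3a9 over naive was 2.72 after bleeding (SE 0.53, adjusted p = 0.025), 2.21 after S-RBCs (adjusted p = 0.031) and 2.74 after HAES (adjusted p = 0.0095). It was 0.53 after PHx (adjusted p = 0.828) and 0.26 after F-RBCs (adjusted p = 0.797). Compared directly, Cyp3a9 differed by -2.46 on the log2 scale, lower after F-RBCs than after bleeding alone (SE 0.53, adjusted p = 0.034). Between S-RBC and F-RBC the difference was 1.94 (SE 0.53, adjusted p = 0.089), which did not pass.

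Each of the Cyp3a9 calls was lost in at least 1 fit that left out a rat. That after bleeding was lost without naive replicate 1 or 2 or any 1 bleeding rat (adjusted p = 0.068 to 0.111), and that after S-RBCs without naive replicate 1 or 2 or S-RBC replicate 2 or 3 (0.053 to 0.164). That after HAES was lost without naive replicate 1 only (0.061). The fall from bleeding to F-RBC was lost without any 1 bleeding rat or F-RBC replicate 2 or 3 (0.056 to 0.156), and its size without F-RBC replicate 2 was -1.87. With an offset of 1, this fall was also no longer past the threshold.

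Of the other Cyp3a genes, Cyp3a2, Cyp3a18, Cyp3a23-3a1 and Cyp3a73 passed in no comparison. Cyp3a23-3a1, a classical PXR target, had log2 levels of 9.31, 9.63 and 9.78 in naive and 11.16, 10.83 and 10.13 in HAES livers. Its fold change of 1.13 (SE 0.35) did not pass (adjusted p = 0.111). Cyp3a2, expressed in adult males, had levels of 10.06, 9.94 and 10.03 in naive livers and 7.70, 9.81 and 9.07 after PHx. PHx replicate 1 was the lowest of the 18 rats for both genes.

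**Figure D4:**
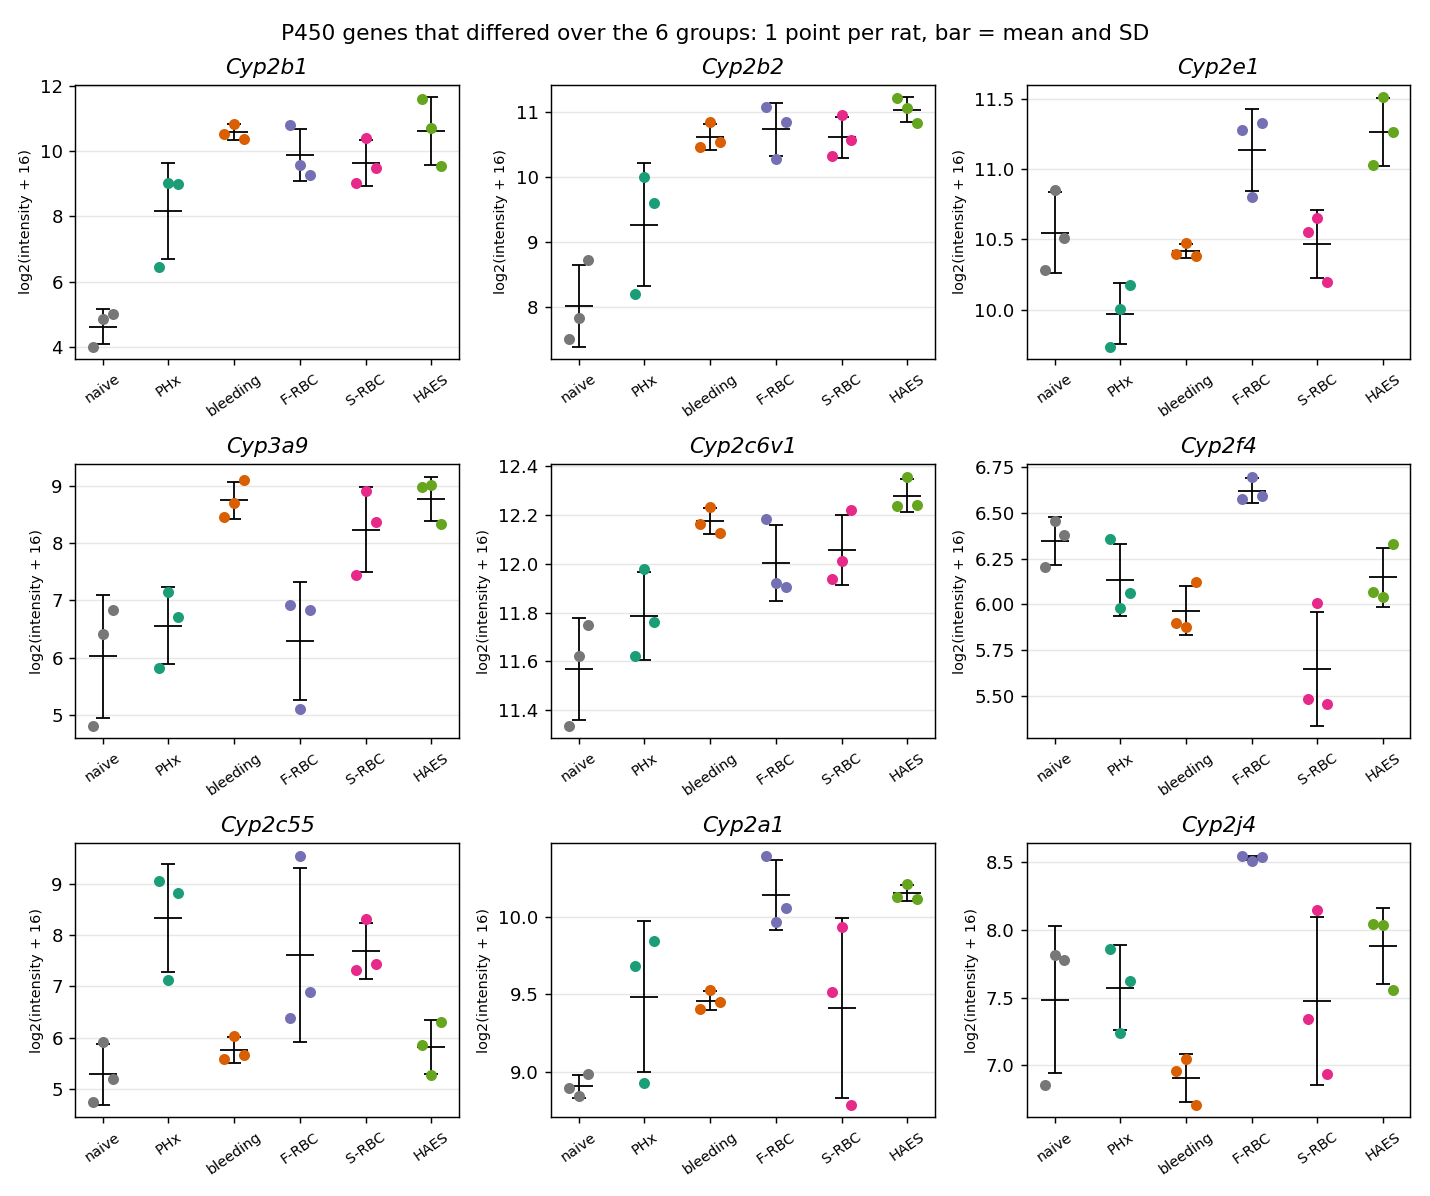
Log2(intensity + 16) of the 9 genes that differed over the 6 groups, with 1 point per rat, a horizontal bar for the mean of 3 rats and whiskers for the SD. For Cyp3a9, the naive, PHx and F-RBC rats lie between 4.82 and 7.15, whereas the bleeding, S-RBC and HAES rats lie between 7.45 and 9.09. The vertical axes differ between genes and do not start at 0.

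Cyp2c55, a member of the Cyp2c subfamily known for the oxidation of arachidonic acid in rodents, had another pattern. Its log2 levels were 4.74, 5.92 and 5.20 in naive liver, 9.05, 7.13 and 8.83 after PHx and 5.58, 6.04 and 5.66 after bleeding. They were 6.39, 9.55 and 6.90 after F-RBCs, 7.32, 8.32 and 7.44 after S-RBCs and 5.86, 5.27 and 6.32 after HAES. The PHx, F-RBC and S-RBC rats were all above the naive rats, whereas the bleeding and HAES rats overlapped with them.

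The log2 fold change of Cyp2c55 over naive was 2.33 after F-RBCs (SE 0.64, adjusted p = 0.04) and 2.41 after S-RBCs (adjusted p = 0.047). After PHx it was larger, at 3.05, and lay just outside the threshold (adjusted p = 0.0502), inside it under quantile normalization (0.047) and median centring (0.04). The bleeding group was below the PHx group by a log2 fold change of -2.57 (adjusted p = 0.186), which did not pass. The call after F-RBCs was lost without naive replicate 1, 2 or 3 or F-RBC replicate 2 or 3 (adjusted p = 0.0501 to 0.162), and without F-RBC replicate 2 the fold change was 1.36. The call after S-RBCs was lost without any 1 of the 6 rats (0.061 to 0.191). Quantile normalization, an offset of 64 and the replicate block ended both of these calls, and median centring ended that after F-RBCs.

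Of the genes known to be higher in males, Cyp2c11, the main testosterone hydroxylase of the male rat liver, had log2 levels of 11.74, 11.80 and 11.81 in naive livers. After PHx they were 9.67, 11.37 and 10.58, after F-RBCs 11.16, 9.75 and 11.41, and after S-RBCs 10.70, 11.04 and 11.37. The bleeding rats, at 11.40 to 11.49, and the HAES rats, at 11.50 to 11.56, were close to each other. Every operated rat was below every naive rat. The differences of -1.24 after PHx (SE 0.37, adjusted p = 0.182) and -1.01 after F-RBCs (adjusted p = 0.11) did not pass. The rats within each of these groups differed by more than 1 log2 unit.

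The same 2 rats had the lowest Cyp2c11 and the highest Cyp2c55, namely PHx replicate 1 and F-RBC replicate 2, which are values seen after the fact and are given without a test. Cyp2c13, Cyp2a2 and Cyp3a18, also male-predominant, passed in no comparison. Cyp2c12, known as a female-specific gene in adult rats, read 9.97, 10.02 and 9.90 in these naive males and 8.32 to 10.91 over the operated rats. Its mean level was among the 10 brightest of the set, and whether its probe set takes signal from the other Cyp2c genes was not tested.

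Cyp2e1, which oxidizes ethanol and other small molecules, was higher after HAES. Log2 levels were 10.28, 10.85 and 10.51 in naive, 10.40, 10.48 and 10.38 in bleeding and 11.03, 11.51 and 11.26 in HAES livers. The HAES rats were above all naive and all bleeding rats. The log2 fold change was 0.72 over naive (SE 0.18, adjusted p = 0.046) and 0.85 over bleeding (adjusted p = 0.028). The former was lost without naive replicate 1 or 3 or HAES replicate 2 or 3 (adjusted p = 0.117 to 0.205), and also under median centring, an offset of 1 and the replicate block. The latter was lost without any 1 bleeding rat or HAES replicate 2 or 3 (0.077 to 0.118). After F-RBCs Cyp2e1 was at 11.28, 10.80 and 11.33, a fold change of 0.59 over naive (adjusted p = 0.067), and after PHx it was at 9.74, 10.00 and 10.17, the 3 lowest values of the 18 rats, where PHx versus naive did not pass (adjusted p = 0.217).

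Cyp2j4, an epoxygenase of arachidonic acid, was higher after F-RBCs. Its log2 levels were 6.86, 7.82 and 7.78 in naive, 6.96, 7.05 and 6.71 in bleeding and 8.54, 8.51 and 8.54 in F-RBC livers. The F-RBC rats were above every other rat of the study. The log2 fold change was 1.05 over naive (SE 0.28, adjusted p = 0.039) and 1.63 over bleeding (adjusted p = 0.011). The former was lost without naive replicate 1 or any 1 F-RBC rat (adjusted p = 0.083 to 0.174), and under quantile normalization and median centring. The latter was lost without bleeding replicate 3 (0.072) or F-RBC replicate 2 (0.058). Cyp2j3, of the same subfamily, had lower means than naive after bleeding (-1.17, adjusted p = 0.088) and after S-RBCs (-1.14, adjusted p = 0.056), and neither passed.

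Between the operated groups, at most 2 of the 40 genes passed in a comparison made here. For bleeding versus PHx, 0 of the 40 genes and 0% of all probe sets passed in limma, whereas 9 of the 40 had an unadjusted p under 0.05, beside 11.2% of all probe sets. The methods' t-test, a plain test of each probe set, also gave 9 unadjusted, beside 14.1% of all probe sets, and 0 adjusted. The 4 with the lowest p were Cyp3a9 (2.18), Cyp2c55 (-2.57), Cyp2b1 (2.42) and Cyp2b2 (1.34), given as log2 fold changes with adjusted p between 0.186 and 0.225. Against bleeding, 2 genes passed after F-RBCs (1.21% of all probe sets), which were Cyp2j4 and Cyp3a9, and 1 after HAES (1.81%), which was Cyp2e1. After S-RBCs, 0 of 40 passed (2.06%) in limma, with 3 at an unadjusted p under 0.05, beside 19.7% of all probe sets. The methods' t-test gave 4 unadjusted, beside 14.3% of all probe sets. The 3 comparisons share the bleeding rats.

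Storage of the transfused cells was addressed by S-RBC versus F-RBC, in which 1 of the 40 genes passed, against 0.496% of all probe sets. It was Cyp2f4, which in rodents is expressed mainly in lung. Its log2 levels were 6.58, 6.70 and 6.59 after F-RBCs and 5.48, 6.01 and 5.45 after S-RBCs, without overlap. The log2 difference was -0.97, lower after S-RBCs (SE 0.16, adjusted p = 0.031). Against naive livers, at 6.20, 6.46 and 6.38, it was -0.70 (adjusted p = 0.026). The former was lost without F-RBC replicate 1 (adjusted p = 0.08) or 2 (0.116) or S-RBC replicate 1 (0.075), the array that stood apart. The latter was lost without naive replicate 2 or 3 or S-RBC replicate 1 or 3 (0.068 to 0.087). Without S-RBC replicate 1, 0 genes passed for S-RBC versus F-RBC and 4 for S-RBC versus naive. An unadjusted p under 0.05 was seen for 11 of the 40 genes, beside 18.5% of all probe sets.

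The regulators and partners of these enzymes were measured on the same arrays. Of 11 listed receptors and partners, 10 were measured and none passed in any comparison. Nr1i3 (CAR) had a mean log2 level of 6.93 ± 0.51 (SD, n = 3) in naive, 5.95 ± 0.26 in PHx and 5.94 ± 0.55 in bleeding livers. Its fold change of -0.99 against naive did not pass after PHx (adjusted p = 0.245) or bleeding (adjusted p = 0.173). Nr1i2 (PXR) was between 7.64 and 8.19 and Ahr between 7.75 and 8.31 in the means of the 6 groups. Por, the electron donor, was between 7.83 and 8.37 and passed in no comparison. Of the 7 measured electron donors and genes of heme supply, Cyb5b, the outer mitochondrial form of cytochrome b5, was higher than naive after F-RBCs (0.85, adjusted p = 0.045) and S-RBCs (1.13, adjusted p = 0.016). Cyb5r3, its reductase, was higher after F-RBCs than after bleeding (1.27, adjusted p = 0.046), and Hmox1, which degrades heme, was lower after HAES than after bleeding (-1.78, adjusted p = 0.03).

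Of 20 listed CAR and PXR targets outside these families, 18 were measured, and they moved in both directions. Against naive rats, 2 were higher and 1 lower after PHx, 1 and 2 after bleeding, 6 and 1 after F-RBCs, 2 and 3 after S-RBCs, and 1 and 2 after HAES. Ces2c, a carboxylesterase that cleaves ester drugs, was higher than naive in all 5 operated groups, by log2 fold changes of 1.57 to 2.56 (adjusted p at most 0.00028). Akr7a3, an aflatoxin aldehyde reductase, was lower than naive in all 5, by -1.83 to -1.35 (adjusted p at most 0.041). Abcb1b, a drug efflux pump, was higher after PHx (2.32, adjusted p = 0.027) and F-RBCs (1.94, adjusted p = 0.016). Slco1a4, an uptake carrier of organic anions, was lower after S-RBCs (-1.15, adjusted p = 0.039), and Aldh1b1, a mitochondrial aldehyde dehydrogenase, was lower after bleeding (-1.03), S-RBCs (-0.80) and HAES (-0.84). Abcc3, Akr1b7, Aldh1a1 and Papss2 were also higher after F-RBCs than in naive livers, and Akr1b7 also after S-RBCs.

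Against bleeding, Aldh1a1, which makes retinoic acid, was higher after F-RBCs (2.13, adjusted p = 0.0094), S-RBCs (1.69, adjusted p = 0.023) and HAES (1.90, adjusted p = 0.013). Papss2, which makes the sulfate donor for conjugation, was likewise higher, by 1.60, 1.08 and 1.11. Ces2c and Gstm1, a glutathione transferase, were higher after F-RBCs than after bleeding and lower after S-RBCs than after F-RBCs, by -0.99 (adjusted p = 0.035) and -0.84 (adjusted p = 0.048). Slco1b2, another uptake carrier, was higher after HAES than after bleeding. Of 4 measured Ahr targets outside the families, Nqo1 was higher than naive after F-RBCs (1.22) and Gsta2 lower after S-RBCs (-1.77, adjusted p = 0.019).

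Of 10 measured genes of growth hormone signalling, Foxa2, a liver transcription factor, was higher than naive after F-RBCs (0.63, adjusted p = 0.034). Of 8 measured nuclear factors of P450 expression, Nr1h4, the bile acid receptor FXR, was higher than bleeding after S-RBCs (1.01) and HAES (1.17). Markers of other cell types moved with some groups. Of 5 neutrophil markers, S100a8 and S100a9 were higher than naive after PHx (1.54 and 1.42) and S100a8 after S-RBCs (1.22), and S100a9 was lower after HAES than after bleeding (-1.15). The mean of the 5 ran from 4.73 to 5.04 in naive, 5.51 to 5.93 in PHx, 5.11 to 5.65 in bleeding, 5.08 to 5.39 in F-RBC, 5.21 to 5.44 in S-RBC and 4.75 to 4.97 in HAES livers. Of the 6 hepatocyte markers, Ttr was lower than naive after F-RBCs (-0.40) and Fgb higher after S-RBCs (0.40). Of the 10 macrophage markers, Vsig4 was higher after S-RBCs than after bleeding, where the fold change of all 10 was above 0 (median 0.49). For bleeding versus PHx, none of the 10 passed and all 10 were below 0 (median -0.57). None of the 5 stellate cell markers passed for bleeding versus PHx or naive, and all 5 were below 0 in both (medians -0.69 and -0.70). Of the 3 measured endothelial markers, only Lyve1 passed after F-RBCs, and it was higher than in naive and bleeding livers. In each of these 2 comparisons, 1 of the 3 had a fold change below 0. Lrat of stellate cells was higher after F-RBCs than after bleeding, where all 5 stellate cell markers were above 0 (median 0.61). Of the 5 markers listed for cholangiocytes, only Spp1 passed after PHx, higher than in naive livers. The median log2 fold change of these 5 was 0.08. For S-RBC versus F-RBC, none of the macrophage, stellate cell or cholangiocyte markers passed. There, all 5 stellate cell markers (median -0.50) and all 5 cholangiocyte markers (median -0.55) were below 0. Of the 10 macrophage markers, 7 were above 0 and 3 below (median 0.36). The part of these shifts in the P450 values was not tested.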

How the data were processed

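GeneChip Rat Gene 2.0 ST arrays measured total liver RNA of 18 rats (6 groups of 3, grouped by GEO's labels). The authors deposited 1 linear intensity per probe set and array for 36685 probe sets. PLIER and Affymetrix Power Tools are listed without a role in the submitters' processing notes, RMA is also mentioned in the methods, and which of these algorithms gave the table is not stated. Tool versions and genome build: not given in the sources used here. Detection calls were not used here, and the number of arrays limits the precision. In GEO's annotation of the array, 18511 probe sets had 1 symbol, 575 had more than 1, and 17599 had no listed symbol.

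Intensities were taken as log2(intensity + 16) and fitted with limma 3.58.1 in R 4.3.3 (6 group means, trend, 12 residual degrees of freedom), with Benjamini-Hochberg adjustment over all probe sets and a threshold of 0.05. Each gene was represented by its brightest probe set. No further normalization was applied. On simulated data for F-RBC versus naive over 36685 probe sets, 64 of 100 planted log2 changes of 1 and 96 of 100 of 2 were recovered, with 8 unplanted calls. The alternatives tried were median centring, quantile normalization, an offset of 1 or 64, no dim probe sets, the replicate block, a fit on the compared groups, the methods' t-test and leaving out each rat. Named were all members past the threshold, the 10 brightest, and genes of the pathway and marker lists. The members and lists were chosen with earlier results of these data known. Promoters came from RefSeq (GRCr8).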

Additional observations from a re-analysis of the deposited data

How the results depend on the processing

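For PHx versus naive, 1 of the 40 P450 genes passed the threshold: the number was 2 under median centring, an offset of 1, quantile normalization and without dim probe sets, and 0 with an offset of 64 and in a fit on the compared groups alone. For F-RBC versus naive (6 genes), median centring, which moved the median difference of all probe sets from 0.14 to -0.04 on the log2 scale, gave 3 and the fit on the compared groups gave 3. That fit also gave 2 genes for bleeding versus naive (4), 3 for S-RBC versus naive (6), 1 for F-RBC versus bleeding (2), 0 for S-RBC versus F-RBC (1) and 3 for HAES versus bleeding (1), with fewer residual degrees of freedom. For F-RBC versus bleeding, an offset of 1 gave 1 gene and the removal of dim probe sets gave 4, over fewer tested probe sets. For S-RBC versus bleeding (0), quantile normalization gave 1. The methods' t-test gave 0 genes after adjustment in all 10 comparisons, and between 4 and 15 at an unadjusted p under 0.05. Where no cause is named, the cause was not tested. Leaving out each rat in turn gave 8 to 11 genes in the F-test, 0 to 3 for PHx, 2 to 4 for bleeding, 3 to 5 for F-RBC, 2 to 4 for S-RBC and 4 to 6 for HAES versus naive. It gave 0 to 3 for F-RBC, 0 to 1 for S-RBC and 0 to 1 for HAES versus bleeding, 0 to 2 for S-RBC versus F-RBC, and 0 throughout for bleeding versus PHx. Of 378 repeats of single gene calls, 248 passed the threshold again, 130 did not and 0 changed direction. No pairing of rats by replicate number was seen. Deviations of the 45 same-numbered pairs correlated between -0.25 and 0.29, 4 of them above 0.1, and 3 of 18 arrays correlated best with their own number. These values cannot exclude that same-numbered rats shared a day or batch. With the replicate block, 9 genes passed the F-test, and 3, 4, 4 and 5 passed for bleeding, F-RBC, S-RBC and HAES versus naive. Another probe set per gene was not run, since each gene had 1.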
